A study of Mus musculus with 8 samples.

Results

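The epithelial-mesenchymal state of the tumor cells was described with 10 genes taken by symbol from the 39089 genes measured: Epcam, Cdh1, Esrp1, Cdh2, Vim, Snai1, Snai2, Twist1, Zeb1 and Zeb2. All 10 were listed in every one of the 8 samples. The samples were RNA-seq libraries of tumor cells sorted as EpCAM-positive and CD45-negative from Myc-CaP tumors. Myc-CaP is a mouse prostate cancer line driven by a Myc transgene, grown here under the skin of male FVB mice that were 6 weeks old. The cells carried either the control vector (named Myc-CaP EV in the labels and WT here) or a guide against Arid1a (Myc-CaP Arid1a KO), and the mice received by daily gavage either corn oil as vehicle or JSH-23, a compound that blocks nuclear entry of the NF-κB subunit p65, for 2 weeks from day 16. Each of the 4 combinations of genotype and treatment had 2 samples. Whether the KO line was a single clone or a pool, and how tumors were assigned to samples, was not given in the sources used here, so p-values measure only the spread between these samples, which may be technical.

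As background, epithelial cells hold each other through E-cadherin (Cdh1) and carry EpCAM at the surface, while ESRP1 keeps the epithelial splicing of many transcripts. In an epithelial-mesenchymal transition the transcription factors SNAI1, SNAI2, TWIST1, ZEB1 and ZEB2 repress such genes, in part through the sequence CACCTG in their promoters, and the intermediate filament vimentin and N-cadherin (Cdh2) appear. NF-κB is known to raise several of these factors, and ARID1A belongs to the SWI/SNF complex, which moves nucleosomes.

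The samples held 16401581 to 21972231 counts each, and the median fitted change of all genes lay between -0.02 and 0.00 on the log2 scale in the 4 comparisons. Arid1a, the targeted gene, was at 156 and 161 CPM (counts relative to the library total, scaled by TMM factors) in WT with vehicle, 103 and 106 in KO with vehicle, 144 and 155 in WT with JSH-23, and 93.8 and 95.9 in KO with JSH-23, lower in all 4 KO samples than in all 4 WT samples. The samples of a group were close (common biological coefficient of variation 1.61%) but not the same library, since a chi-square of their counts gave 1.46 to 1.57 per degree of freedom. The second WT sample with JSH-23 stood apart from the first in genes of low count and was on the side of the KO samples there: Thbs1 had 36 counts in the first and 2 in the second, Adgre1 17 and 1, and Itgam 12 and 0. Its Arid1a level was that of WT. The luminal prostate genes Foxa1 and Hoxb13 were transcribed in every sample, at means of 132 and 128 TPM. Ptprc, which encodes CD45, had 0 to 10 counts.

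Of the epithelial genes, Epcam was almost absent from the transcripts of cells sorted for its protein. It had 0 and 1 counts in WT with vehicle, 0 and 4 in KO with vehicle, 0 and 0 in WT with JSH-23, and 0 and 1 in KO with JSH-23. Only 1 of the 8 samples passed 3 counts, the floor used here for a gene that can be told from absence, and the data therefore go against the EpCAM-positive label at the level of transcripts. Epcam lies at chr17:87635979-87651127 (GRCm38, plus strand), and the 250 bases before its start, which are shown because they hold the CACCTG sequence that SNAI and ZEB proteins are known to bind, contained it at 2 places, 187 and 19 bases before the start (RefSeq, chr17:87635729-87635978, plus strand, matches in capitals):
Epcam: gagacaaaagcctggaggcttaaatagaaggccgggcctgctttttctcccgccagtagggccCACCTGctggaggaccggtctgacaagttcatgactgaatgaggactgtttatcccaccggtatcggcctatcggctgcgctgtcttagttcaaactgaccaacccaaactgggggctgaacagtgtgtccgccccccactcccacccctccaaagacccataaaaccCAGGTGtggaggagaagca
CACCTG or its reverse complement CAGGTG was in 17.2% of all 32851 promoter windows of 250 bases, and the looser CANNTG, which includes it, in 66.2%. A match is a description of the letters only.

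Cdh1, the gene of E-cadherin (chr8:106603350-106670247), had few reads in every sample. Its counts were 8 and 5 in WT with vehicle, 6 and 19 in KO with vehicle, 4 and 1 in WT with JSH-23, and 8 and 7 in KO with JSH-23. The groups overlapped between the genotypes with vehicle, and the ratio of KO to WT counts per total count was 1.68 (95% exact interval 0.827 to 3.58, counting error only) with vehicle and 2.62 (0.905 to 9.21) with JSH-23. A genotype difference in Cdh1 was not detectable at this depth. Esrp1 had 0 to 4 counts, with no sample but the second WT vehicle sample above 3.

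Among the mesenchymal genes, N-cadherin was as close to absence as EpCAM. Cdh2 had 0 to 2 counts in each sample and was above 3 in no sample. Vim was the opposite, with 9796 to 31963 counts, and was rank 107 of the 39089 genes by mean TPM (a level per length of transcript). Per length, the mean over the 8 samples was 1463 TPM for Vim, 0.210 for Cdh1 and 0.0450 for Epcam. The cells thus held the vimentin transcript at a high level without the N-cadherin transcript.

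**Figure D1:**
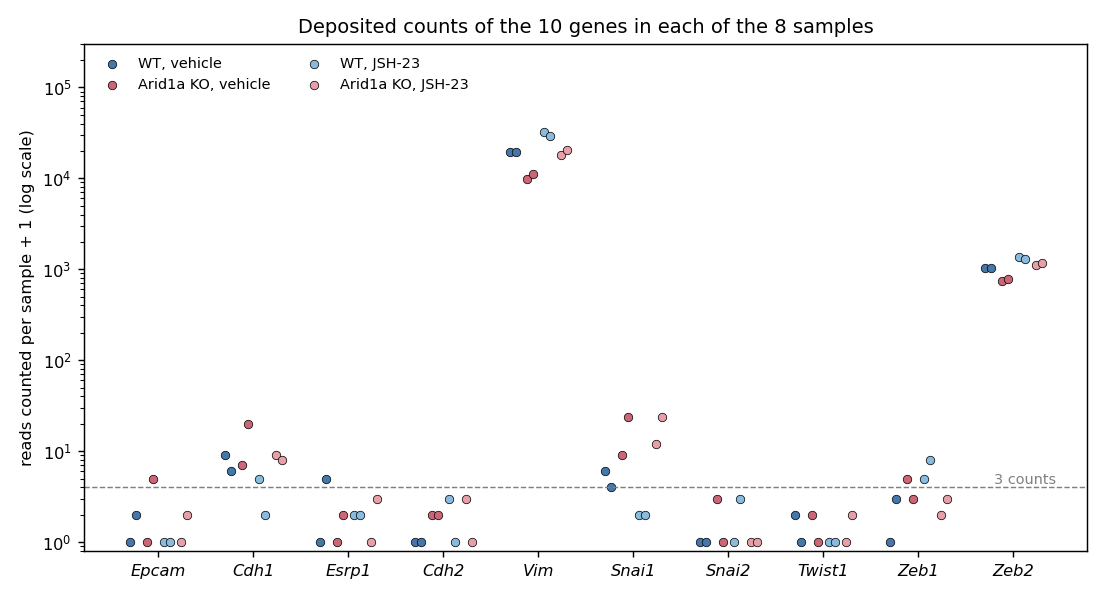
Deposited counts of each of the 10 genes, plotted as count plus 1 on a log axis, with a point for each of the 8 samples coloured by group and a dashed line at 3 counts. Vim and Zeb2 lie far above the line in all samples, Cdh1 and Snai1 lie between 1 and 23 counts, and the other 6 genes are at 0 to 7 counts.

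Of the transcription factors, Zeb2 was the only member of the group with a substantial level. Zeb2 (chr2:44983512-45117442, minus strand) had 746 to 1380 counts and a mean of 12.1 TPM, whereas its relative Zeb1 had 0 to 7 counts and a mean of 0.0230 TPM. Snai1 had 1 to 23 counts, Snai2 0 to 2, and Twist1 0 or 1. Twist2, the relative of Twist1, was at 535 to 737 counts and 62.9 TPM, so that in both families a single member was transcribed at a level well above the floor. The order of mean levels per length was Vim, Zeb2, Snai1, Cdh1 and then the other 6 genes, which at 0 to 7 counts could not be ordered. The antisense gene Zeb2os had 5 to 32 counts, and the counting was stated to use strand.

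Zeb1 gave the following counts, all near the floor: 0 and 2 in WT with vehicle, 4 and 2 in KO with vehicle, 4 and 7 in WT with JSH-23, and 1 and 2 in KO with JSH-23. The ratio of JSH-23 to vehicle in WT was 5.42 (95% exact interval 1.18 to 50.3, counting error only) from 11 against 2 counts, and the ratio of KO to WT with JSH-23 was 0.238 (0.0427 to 0.901) from 3 against 11. With no filter on low counts, edgeR's quasi-likelihood test, Benjamini-Hochberg adjusted gave Zeb1 an adjusted p of 0.196 for JSH-23 in WT, and no call in the other comparisons. In bulk samples such as these, fewer cells that express a gene and less RNA per cell cannot be told apart.

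The members passing the filter on low counts were Vim, Zeb2 and Snai1, 3 of 10, against 13921 of all 39089 genes. Snai1 passed through its counts in the KO samples, where it was high. When all 10 were tested with no filter, these 3 were still the only members with an adjusted p below 0.05 in any comparison.

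Arid1a KO against WT with vehicle asks what loss of Arid1a did without inhibitor. Vim was lower, Zeb2 was lower, and the low Snai1 count was higher. Here 12.6% of all tested genes passed 1.5-fold with an adjusted p below 0.05, and 50.5% passed the adjusted p alone.

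Vim was at 1147 and 1152 CPM in the WT samples and at 541 and 537 CPM in the KO samples. The samples of a genotype differed by far less than the genotypes did. Vim fell by 1.09 ± 0.016 on the log2 scale (SE, edgeR's quasi-likelihood test, Benjamini-Hochberg adjusted, adjusted p = 2.94e-59), a 2.13-fold lower level in KO.

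Zeb2 was at 61.0 and 61.2 CPM in WT and at 41.2 and 37.7 CPM in KO, again without overlap. It fell by 0.63 ± 0.057 on the log2 scale (edgeR's quasi-likelihood test, adjusted p = 1.00e-15), which is 1.55-fold lower. Without the second KO vehicle sample the log2 change of Zeb2 was -0.57, just short of 1.5-fold. ZEB2 is a zinc finger repressor of Cdh1, and the window before its first start is shown because Zeb2 moved with Vim (RefSeq, GRCm38, chr2:45117443-45117692, minus strand). It held none of the sequences searched, as did the windows of the other 3 Zeb2 starts, so it carries no capitals:
Zeb2: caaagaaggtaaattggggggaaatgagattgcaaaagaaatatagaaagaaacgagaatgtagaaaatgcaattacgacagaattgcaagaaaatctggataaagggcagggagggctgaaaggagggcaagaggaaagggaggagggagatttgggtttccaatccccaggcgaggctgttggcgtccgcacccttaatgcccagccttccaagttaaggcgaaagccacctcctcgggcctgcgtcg

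Snai1 had 5 and 3 counts in WT with vehicle and 8 and 23 in KO with vehicle. All KO counts were above all WT counts, although the KO samples differed from each other more than the genotypes' nearest samples did. The ratio of KO to WT was 3.38 (95% exact interval 1.52 to 8.52, counting error only) from 31 against 8 counts, and the fitted log2 change was 1.72 ± 0.64 (edgeR's quasi-likelihood test, adjusted p = 0.0194). The call rested on the second KO vehicle sample, without which the fitted log2 change was 0.88 and edgeR's adjusted p was 0.470, and it also ended without either WT vehicle sample (adjusted p = 0.0573 and 0.174). SNAI1 is a short-lived zinc finger repressor known to act early in the transition, and its own promoter is known to hold a site for SNAI proteins. The window before the Snai1 start (RefSeq, chr2:167537945-167538194, plus strand) held CACCTG 126 bases before the start, in capitals:
Snai1: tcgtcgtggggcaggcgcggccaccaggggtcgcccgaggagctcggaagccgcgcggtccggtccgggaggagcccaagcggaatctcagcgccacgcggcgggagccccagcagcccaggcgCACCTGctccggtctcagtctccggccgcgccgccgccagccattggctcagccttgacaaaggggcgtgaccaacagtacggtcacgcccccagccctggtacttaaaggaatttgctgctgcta

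The same genotype comparison in mice given JSH-23 gave the same directions for the 3 genes. Of all genes tested, 8.71% passed 1.5-fold and the adjusted p in this comparison, and 47.0% the adjusted p alone.

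Vim was at 1785 and 1763 CPM in WT with JSH-23 and at 987 and 984 CPM in KO with JSH-23, with no overlap. It fell by 0.85 ± 0.015 on the log2 scale (edgeR's quasi-likelihood test, adjusted p = 4.06e-54), 1.80-fold. Zeb2 was at 77.1 and 78.4 CPM in WT and at 59.4 and 56.0 CPM in KO. It fell by 0.43 ± 0.050 on the log2 scale (edgeR's quasi-likelihood test, adjusted p = 2.81e-11), a 1.35-fold difference that did not reach 1.5-fold. On the log2(TPM + 0.1) scale it passed 1.5-fold at -0.62, where the median of all genes was -0.19. Without the WT JSH-23 sample that stood apart, the log2 changes were -0.86 for Vim and -0.42 for Zeb2.

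Snai1 had 1 and 1 counts in WT with JSH-23 and 11 and 23 in KO with JSH-23. Both genotypes were therefore separated, with WT under the floor of 3 counts. The ratio was 14.8 (95% exact interval 3.80 to 128, counting error only) from 34 against 2 counts, and edgeR's quasi-likelihood test gave an adjusted p of 1.26e-04, which stayed below 0.05 without any 1 sample. Across both treatments the 4 KO samples held 8 to 23 Snai1 counts and the 4 WT samples 1 to 5.

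**Figure D2:**
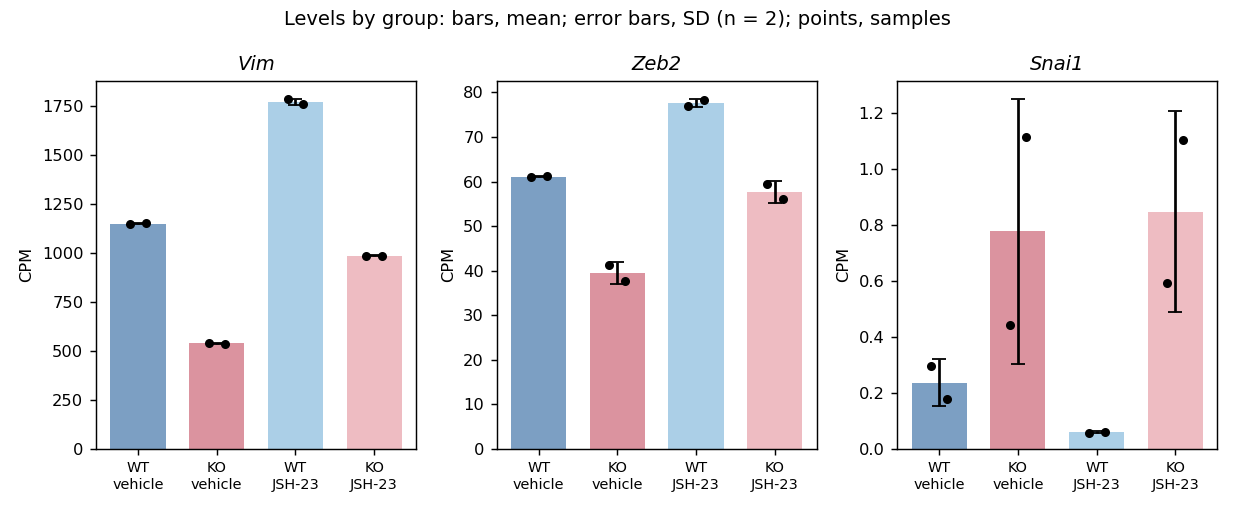
Levels of Vim, Zeb2 and Snai1 in CPM (vertical axes from 0) in the 4 groups, with bars at the mean, error bars of 1 SD (n = 2) and a point per sample. Vim and Zeb2 are lower in KO than in WT under each treatment and higher with JSH-23 in each genotype, and Snai1 is at most 1.11 CPM in any sample.

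JSH-23 against vehicle within WT asks what the inhibitor did to cells with Arid1a. Vim rose from 1150 ± 3.62 to 1774 ± 15.5 CPM (mean ± SD, n = 2 per group). The log2 change was 0.63 ± 0.015 (SE, edgeR's quasi-likelihood test, adjusted p = 2.10e-46), or 1.54-fold, in a comparison in which 15.8% of genes passed 1.5-fold and 55.8% the adjusted p alone. Zeb2 rose by less, from 61.1 ± 0.0921 to 77.7 ± 0.921 CPM (n = 2 per group). Its log2 change was 0.35 ± 0.051 (edgeR's quasi-likelihood test, adjusted p = 2.36e-08), or 1.27-fold. Snai1 had 8 counts over both vehicle samples and 2 over both JSH-23 samples, a ratio of 0.246 (95% exact interval 0.0255 to 1.23), and edgeR's adjusted p of 0.144 did not pass.

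Within KO, JSH-23 was followed by larger values of the same sign for both genes. Vim rose from 539 ± 3.05 to 986 ± 2.48 CPM (n = 2 per group), a log2 change of 0.87 ± 0.016 (edgeR's quasi-likelihood test, adjusted p = 1.16e-53) or 1.83-fold. Zeb2 rose from 39.5 ± 2.46 to 57.7 ± 2.42 CPM (n = 2 per group), a log2 change of 0.55 ± 0.056 (edgeR's quasi-likelihood test, adjusted p = 7.63e-14) or 1.46-fold. In this comparison 26.0% of genes passed 1.5-fold and 67.8% the adjusted p alone, so that a call was common among all genes. Snai1 held 31 counts with vehicle and 34 with JSH-23, a ratio of 1.08 (95% exact interval 0.644 to 1.82).

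JSH-23 blocks NF-κB entry into the nucleus, and the NF-κB consensus was therefore looked for before the start of Vim (chr2:13574311-13582826, plus strand). It matched 3 times on either strand, at 223, 142 and 141 bases before the start, and the last 2 matches overlap. The same consensus was in 7.25% of all promoter windows. These 250 bases also lie within a longer Vim transcript of the GENCODE annotation, as untranslated exon, so that only the 30 bases around each separate match are shown, with the match in capitals:
Vim, 223 bases before the start: gtgatcaccaGGAAAGCCCCtgaaaggcct
Vim, 142 bases before the start: gaaggctcgaGGGGAGCTCCctcccccacc
The Epcam, Snai1 and Zeb2 windows held no match to this consensus. RefSeq windows were at hand for Vim, Zeb2, Snai1, Twist1 and Epcam, 5 of the 10 genes.

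The effect of JSH-23 was larger in KO than in WT for Vim by 0.25 ± 0.022 on the log2 scale (interaction, edgeR's quasi-likelihood test, adjusted p = 2.96e-15) and for Zeb2 by 0.20 ± 0.076 (adjusted p = 0.0279). For Zeb2 the adjusted p was 0.140 with DESeq2 and 0.316 by library size only, so that its difference did not hold there. Neither difference reached 1.5-fold, a size that 9.07% of genes passed with the adjusted p, while 38.4% passed the adjusted p alone. On the scale of log2(TPM + 0.1) the Vim difference was 0.05 and the Zeb2 difference 0.0031 (limma, adjusted p = 0.103 and 0.984), and neither passed there, where the median of all genes was -0.20 in place of 0.00. Vim in KO with JSH-23 (987 and 984 CPM) remained below Vim in WT with vehicle (1147 and 1152 CPM), while Zeb2 in KO with JSH-23 (59.4 and 56.0 CPM) lay close under Zeb2 in WT with vehicle (61.0 and 61.2 CPM). These last values come from groups that differ in both genotype and treatment and were not tested.

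The patterns of Vim and Zeb2 over the 8 samples were alike, with a Pearson correlation of log2 CPM of 0.992. The genes most like Vim were Marchf8 (0.997) and Nop2 (0.996), and those most like Zeb2 were Wdr43 (0.998) and Grik5 (0.993). These correlations describe 4 groups of 2 samples that share their treatment, and 249 of 9192 genes reached 0.95 with Vim and 231 with Zeb2, so such likeness was not rare.

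**Figure D3:**
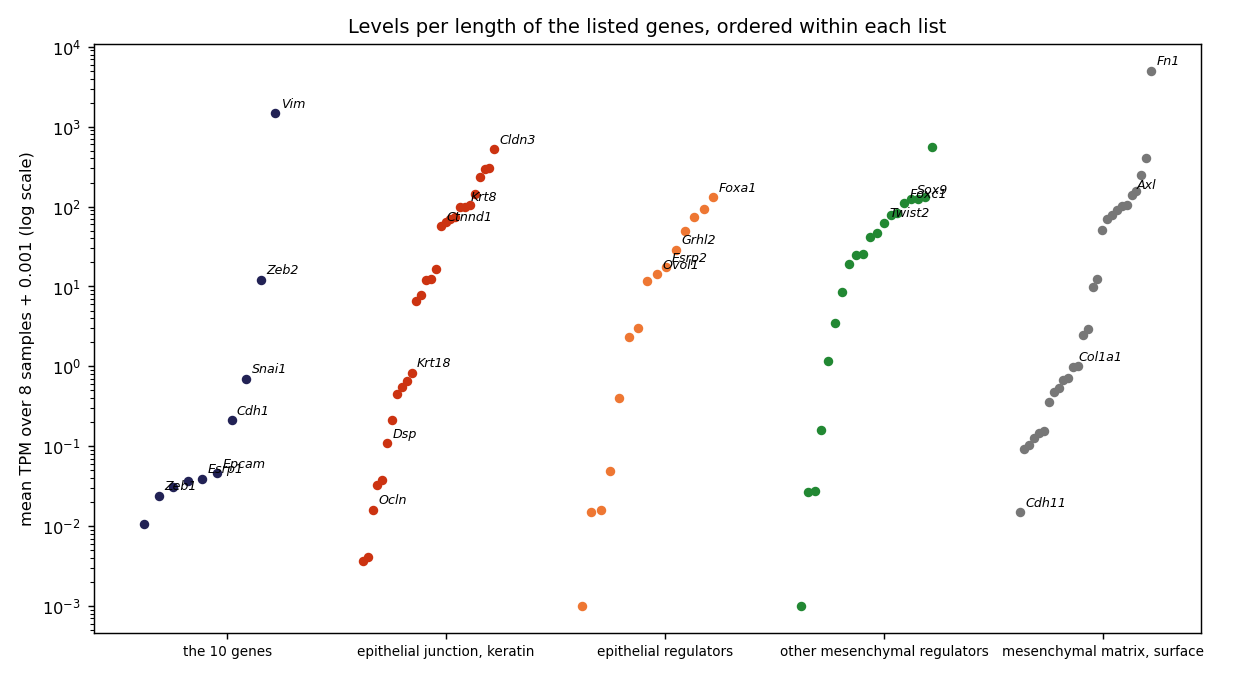
Mean TPM over the 8 samples, plotted with 0.001 added on a log axis, for the 10 genes and 4 lists of related genes, ordered from low to high within each list, with some genes named. Fn1, Vim, Cldn3 and Foxa1 are high, whereas Epcam, Cdh1, Krt18, Dsp and Ocln are below 1 TPM.

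Beyond the 10 genes, the epithelial list held junction, surface and keratin genes, 28 in number, of which 22 passed the filter and 9 were at 25 counts or fewer in every sample. Cldn3, a tight junction claudin, had a mean of 527 TPM, and Ctnnd1, the p120 catenin that binds cadherins, 56.9 TPM. Krt8 had 540 to 2308 counts, while Krt18, its usual filament partner, had 4 to 18, and the junction genes Ocln and Dsp had at most 2 and 15. P-cadherin did not take the place of E-cadherin, as Cdh3 had 0 to 2 counts. Transcripts of the keratin family can share reads with close copies, so these levels carry that uncertainty.

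In KO against WT with vehicle, 6 of the 22 tested epithelial genes were higher by 1.5-fold and 0 lower by edgeR's test, beside 12.6% of all genes called in either direction, and 8 were higher and 8 lower by the adjusted p alone. The list median was 0.04 on the log2 scale, against 0.00 for all genes. The keratins and a polarity gene led the list. Krt19 rose from 41.0 and 36.7 CPM to 104 and 102 CPM, a 2.64-fold change (edgeR's quasi-likelihood test, adjusted p = 1.48e-34). Krt8 rose from 59.7 and 51.1 CPM to 113 and 112 CPM, 2.02-fold (edgeR, adjusted p = 3.79e-29). Crb3, a Crumbs protein of the apical membrane, rose from 5.40 and 5.23 CPM to 11.7 and 10.5 CPM, 2.08-fold (edgeR, adjusted p = 9.79e-10). With JSH-23, 6 of 22 were higher in KO and 1 lower, beside 8.71% of all genes, with a median of 0.30. Krt19 was at 11.6 and 13.9 CPM in WT and 79.7 and 82.9 CPM in KO, a 6.42-fold difference (edgeR, adjusted p = 5.00e-44). Krt8 differed 3.04-fold (edgeR, adjusted p = 2.49e-37).

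JSH-23 in WT was followed by lower levels of 5 epithelial genes of the 22 and higher levels of 0 at 1.5-fold (edgeR; 3 higher and 9 lower by the adjusted p alone), beside 15.8% of all genes, with a median of -0.11. Krt19 fell 3.07-fold and Krt7 1.94-fold (edgeR, adjusted p = 1.78e-27 and 5.44e-20). In KO, 2 were higher and 4 lower of the 22, a share near the 26.0% of all genes. The median was 0.00 against -0.02 for all genes, and by library size only it was -0.11 against -0.13, with 0 higher and 4 lower. Called changes there included Krt7 (1.77-fold lower) and Pkp3, a desmosome plakophilin (1.69-fold lower; edgeR, adjusted p = 5.39e-09). Krt8 and Krt19 also differed in their response to JSH-23 between genotypes, by 0.59 and 1.28 on the log2 scale (interaction, edgeR, adjusted p = 9.54e-10 and 1.01e-18). With Vim and Krt8 set against each other per length, the ratio of their TPM was 18.9 and 22.2 in WT with vehicle, 4.73 and 4.73 in KO with vehicle, 52.9 and 52.9 in WT with JSH-23, and 9.94 and 9.40 in KO with JSH-23. The groups did not overlap in this ratio, which was chosen after its values were seen. That separation follows from the opposite changes of Vim and Krt8 given above and is no separate result.

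The epithelial regulators were 15 factors that hold the epithelial state, of which 11 passed the filter. Esrp2, the relative of Esrp1, had 372 to 615 counts, and Grhl2, Foxa1 and Ovol1 were also transcribed, at 28.8, 132 and 14.1 TPM, while Ovol2 had 0 to 2 counts. In KO against WT with vehicle 5 of the 11 were higher by 1.5-fold and 0 lower (7 and 2 by the adjusted p alone), beside 12.6% of all genes, with a median of 0.71 against 0.00 for all genes. Grhl1, a grainyhead factor, rose from 2.20 and 2.29 CPM to 8.56 and 9.54 CPM, 4.03-fold (edgeR, adjusted p = 5.16e-15). The ETS factors of epithelia followed, with Ehf 3.10-fold higher and Elf3 2.66-fold higher (edgeR, adjusted p = 1.08e-27 and 7.04e-31). With JSH-23 the genotype difference was called for 2 of the 11, beside 8.71% of all genes, Ehf at 2.96-fold and Elf3 at 1.58-fold (edgeR, adjusted p = 2.37e-22 and 8.58e-12). The median was 0.18 with TMM scaling, against -0.01 for all genes. With log2(TPM + 1) it was -0.01, against -0.16 for all genes. The number called was 1 by library size only, on both TPM scales and without the first WT JSH-23 sample, and 3 with only the groups compared and without the first KO JSH-23 sample.

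JSH-23 in KO was followed by lower levels of 6 of the 11 epithelial regulators and higher levels of 0 at 1.5-fold (2 higher and 7 lower by the adjusted p alone), beside 26.0% of all genes, with a median of -0.68 against -0.02 for all genes. Grhl1 fell 2.36-fold, Elf3 2.17-fold and Klf4, a barrier factor, 2.06-fold (edgeR, adjusted p = 4.52e-10, 2.11e-27 and 9.13e-35). In WT, 3 were lower and 1 higher, beside 15.8% of all genes, with a median of -0.37, and 2 were lower without any 1 of the WT samples. Ehf fell 1.70-fold and Grhl2 1.51-fold, while Grhl1 rose 1.68-fold (edgeR, adjusted p = 3.23e-08, 5.61e-16 and 0.00313). The Grhl1 rise was from 2.20 and 2.29 CPM to 4.19 and 3.34 CPM, and its call rested on the first WT JSH-23 sample. Without the WT JSH-23 sample that stood apart, 4 epithelial junction and keratin genes and 2 epithelial regulators were lower with JSH-23 in WT, and 5 and 2 were higher in KO than in WT with JSH-23. The JSH-23 response of Grhl1 differed between the genotypes by -1.99 on the log2 scale (interaction, edgeR, adjusted p = 8.66e-09).

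**Figure D4:**
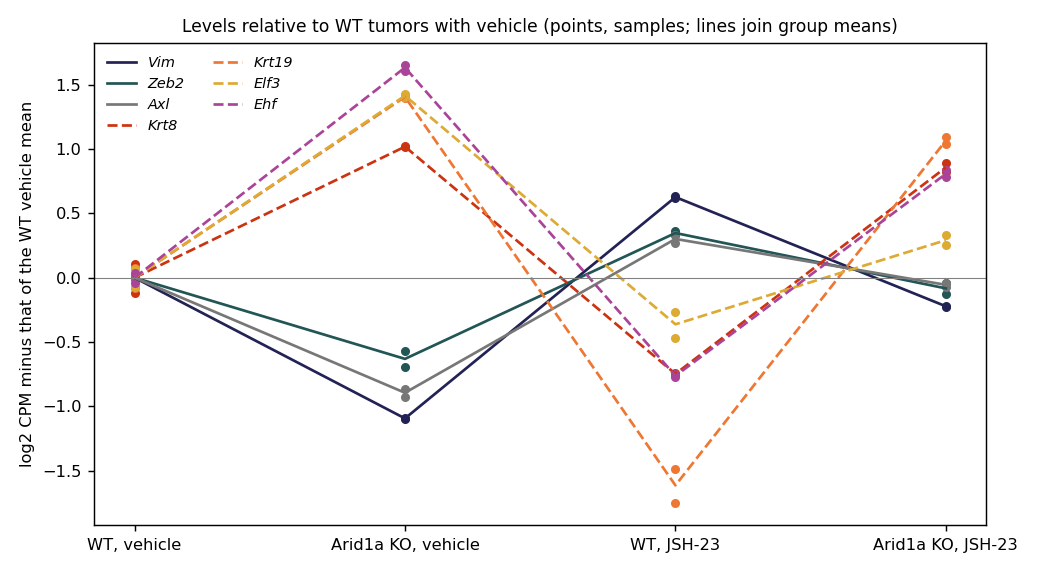
Levels of Vim, Zeb2 and Axl (solid lines) and of Krt8, Krt19, Elf3 and Ehf (dashed lines) as log2 CPM minus the log2 of the WT vehicle mean, with a point per sample and lines joining the group means only to guide the eye. The first 3 are lower in KO with vehicle and the other 4 higher, and in WT with JSH-23 the signs are the opposite.

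Other regulators of the mesenchymal state, 16 of 20 of which passed the filter, showed no common direction as a list. The share called was near that of all genes with vehicle, at 2 of 16 beside 12.6%. Id1, Id2 and Id3 were counted in it with the same sign as the other genes. It was not divided into genes that promote and genes that oppose that state, so a list direction is not a direction of the state. With vehicle, 1 was higher and 1 lower in KO by 1.5-fold (5 and 5 by the adjusted p alone), and the median was 0.04. Id3, an inhibitor of basic helix-loop-helix factors, was 1.72-fold higher and Klf8 1.61-fold lower (edgeR, adjusted p = 2.53e-09 and 0.00563). With JSH-23, 2 were higher and 2 lower in KO, a larger share of the 16 than the 8.71% of all genes called. Among them were Id1 at 2.18-fold higher and Sox4 at 1.74-fold lower (edgeR, adjusted p = 1.19e-29 and 5.54e-31). JSH-23 itself was followed by 1 higher and 1 lower in WT, beside 15.8% of all genes. Klf8 was 1.61-fold higher and Id1 1.57-fold lower (edgeR, adjusted p = 0.00105 and 3.99e-16). In KO 1 was higher and 2 lower, beside 26.0% of all genes. Klf8 was 1.59-fold higher, and Foxq1 1.61-fold and the splicing factor Rbfox2 1.5-fold lower (edgeR, adjusted p = 0.00410, 8.20e-13 and 4.16e-30). Rbfox2 was just at the 1.5-fold threshold, and the number lower in KO was 1 with DESeq2, with no filter and with only the groups compared. By library size only and on both TPM scales 0 were higher and 3 lower in KO. Twist2 did not pass the test in any of these, with log2 changes of 0.02 to 0.04.

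Of 28 mesenchymal matrix, surface and cytoskeletal genes, 26 passed the filter. Fibronectin (Fn1) was at 5013 TPM, rank 20 of all genes, and its log2 changes were -0.12 to 0.03. With vehicle, 1 gene of the list was higher in KO and 9 lower by 1.5-fold (3 and 16 by the adjusted p alone), beside 12.6% of all genes called, with a median of -0.43 against 0.00 for all genes. This count and median changed with the filter and with single libraries. The number lower was 3 of the 15 genes left by a minimum of 10 counts per sample, with a median of -0.17, and 5 were lower with DESeq2 and 4 with log2(TPM + 1). Without the second WT vehicle sample 4 were higher and 7 lower, and without the first 11 were lower with a median of -0.67. Axl, a receptor tyrosine kinase, fell from 332 and 327 CPM to 174 and 181 CPM, 1.86-fold (edgeR, adjusted p = 8.47e-41). Cald1, caldesmon, fell 1.78-fold (edgeR, adjusted p = 4.74e-33). Several called genes were at very low counts, such as Thbs1 at 69 and 42 counts in WT and 0 and 3 in KO, Tnc at 9 and 12 against 0 and 0, and Tgfbi at 27 and 17 against 3 and 4.

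With JSH-23, 1 gene of this list was higher in KO and 7 lower, beside 8.71% of all genes, with a median of -0.47. Thbs1 was at 36 and 2 counts in WT and 2 and 0 in KO, and the fitted differences of Col1a2 and Col3a1 were -1.66 and -1.56 on the log2 scale (edgeR, adjusted p = 2.62e-04 and 9.20e-05). The number lower was 3 without the first WT JSH-23 sample, 8 without the second, 11 without the first KO JSH-23 sample and 2 without the second, so that this count rested on single libraries. It was also 2 with DESeq2 and under a minimum of 10 counts per sample, 4 with only the groups compared and with log2(TPM + 0.1), and 3 with log2(TPM + 1). The median was -0.05 under that minimum, -0.20 with only the groups compared and -0.26 without the first WT JSH-23 sample. JSH-23 in WT gave 1 higher and 5 lower, beside 15.8% of all genes, with Thbs1 at 111 counts with vehicle against 38 with JSH-23 and Col3a1 2.54-fold higher from a low level (edgeR, adjusted p = 5.74e-04). Without the first WT JSH-23 sample 9 were lower, without the first WT vehicle sample 3, and without the second WT vehicle sample 3 were higher and 5 lower. In KO 2 were higher and 3 lower of the 26, a smaller share than the 26.0% of all genes, with Axl 1.79-fold higher, the lysyl oxidase Loxl2 1.94-fold lower and Col5a1 1.73-fold lower (edgeR, adjusted p = 5.16e-40, 7.26e-42 and 4.83e-38). Without the first KO JSH-23 sample 7 were lower with a median of -0.37, and without the second 3 were higher and 3 lower with a median of 0.26, against -0.04 with all samples.

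**Figure D5:**
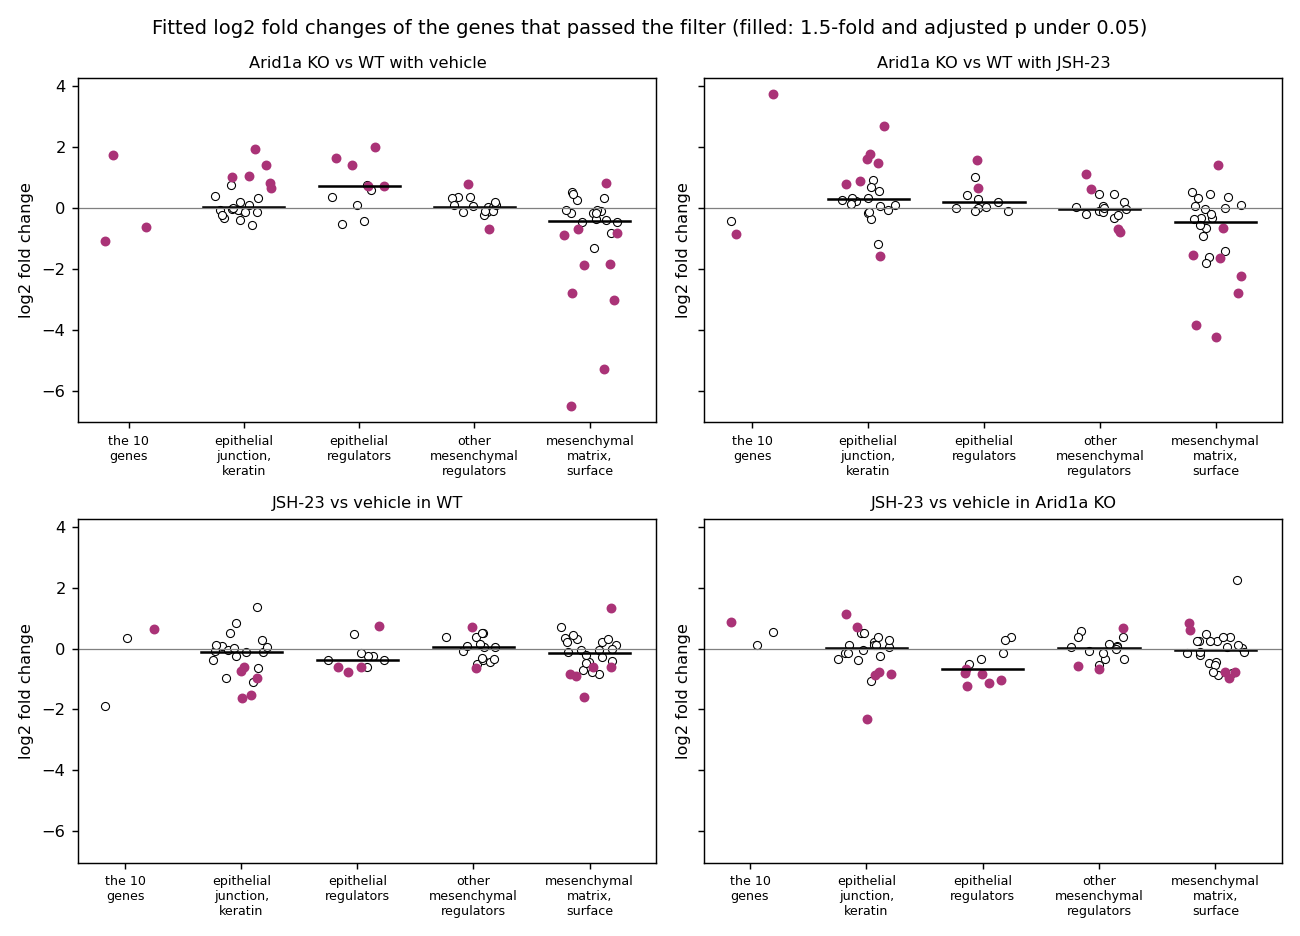
Fitted log2 fold changes of the tested genes in 4 comparisons, for the 10 genes and 4 lists, with filled points for 1.5-fold and an adjusted p below 0.05 and bars at the list medians. The epithelial regulators have a median of 0.71 in KO against WT with vehicle and of -0.68 with JSH-23 in KO, and the mesenchymal matrix genes one of -0.43 in the former, where fitted values of genes at or near 0 counts in a group are no bound.

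Markers of other cell types were low beside Vim. The summed level of 10 leukocyte markers was 19.7 to 22.4 CPM in both vehicle groups, 10.3 to 19.8 CPM in WT with JSH-23 and 10.2 to 12.9 CPM in KO with JSH-23. The macrophage genes Adgre1 and Itgam moved with genotype, at 17 and 19 and at 10 and 15 counts in WT with vehicle, and at 0 in both KO vehicle samples. Of the 10, 2 were above 3 counts in every sample and 3 at 3 or fewer in every sample. The 9 fibroblast markers summed to 41.9 to 65.0 CPM and the 8 endothelial markers to 1.48 to 4.42 CPM, with 3 and 1 of them at or below 3 counts in all samples. The fibroblast sum was mostly the receptor gene Pdgfra, at a mean of 52.5 CPM, with Col1a1 next at 2.42 CPM. The 8 markers of mural and muscle cells summed to 7.34 to 29.1 CPM, highest in WT with vehicle, and mostly through Notch3, at a mean of 14.9 CPM. Acta2 had 3 and 83 counts in the WT vehicle samples and 85 and 0 in the KO JSH-23 samples, a spread within groups. The 4 basal markers, mostly through Krt15, moved with both genotype and JSH-23 in the same directions as Krt8 and Krt19, at 29.9 and 30.6 CPM in WT with vehicle, 56.3 and 61.0 CPM in KO with vehicle, 8.69 and 8.77 CPM in WT with JSH-23, and 29.6 and 30.5 CPM in KO with JSH-23. The part of these cells in the results of the lists was not tested. Vim was at 537 CPM or more in every sample.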

How the data were processed

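RNA was sequenced from 8 samples in 4 groups of 2. Per the study's methods the authors aligned reads to GRCm38/mm10 with TopHat2 and counted them per gene with HTSeq-count, both strand-specific, keeping the best match of each read. The submitters' processing notes name HISAT2, HTSeq and DESeq2, so the aligner differs between sources. The deposited count per gene was not normalized. The deposited TPM equals the count divided by gene length and scaled to a fixed total per sample, a step that the sources used here do not describe.

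Counts were tested with edgeR 4.0.16 (R 4.3.3): filterByExpr, TMM scaling and a quasi-likelihood fit of the 4 groups over all 8 samples (13921 genes), with Benjamini-Hochberg adjustment. Called genes passed 1.5-fold and an adjusted p of 0.05. The fit was tested on simulated data. CPM used TMM-scaled totals, and 3 counts were taken as the floor. Intervals of count ratios were exact binomial (95%) and cover counting error only. Alternatives were DESeq2 1.42.0, library size only, no filter, a minimum of 10 counts in each sample, a replicate block, limma 3.58.1 on log2(TPM + 1) and log2(TPM + 0.1), a fixed BCV of 0.1, only the groups compared, and leaving out each sample.

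The 10 genes and the lists were chosen with earlier results of these data known. Named were all 10 genes, from each list the 3 called genes of largest change with a mean of at least 1 CPM per comparison, the 2 genes most correlated with Vim and with Zeb2, Arid1a, and known partners, and the marker genes and low-count genes given by counts were chosen after their values were seen. Some genes that this rule names are not reported here. Windows of 250 bases before the start came from RefSeq (GRCm38.p6). Whole promoter sequence was not printed where it overlaps an annotated exon.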

Additional observations from a re-analysis of the deposited data

Results flagged for a closer look

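The response of Vim to JSH-23 was larger in KO than in WT by 0.245 on the log2 scale, and that of Zeb2 by 0.202, which is why both were singled out: the test of the difference itself (interaction, edgeR's quasi-likelihood test, Benjamini-Hochberg adjusted) gave adjusted p = 2.96e-15 and 0.0279. Vim rose in 2 of 2 KO samples above every KO vehicle sample and likewise in WT, and so did Zeb2. Neither reached 1.5-fold. The Vim difference passed the adjusted p without each single sample, at 0.24 to 0.26, and the Zeb2 difference, at 0.14 to 0.27, passed it in 3 of those 8 settings. The Zeb2 difference also missed the adjusted p with DESeq2 (0.140) and by library size only (0.316). Both differences missed the threshold on the log2(TPM + 1) scale, where the median of all genes was -0.17 in place of 0.00, and with a BCV of 0.1.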

How the results depend on the processing

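Vim kept its direction in all 84 values recomputed for it, and its side of the adjusted p threshold in 81, the others being the interaction on both TPM scales and with a BCV of 0.1. In KO against WT with vehicle 3 of the 10 genes were tested and all 3 called, beside 12.6% of all genes. The number was 1 with limma on log2(TPM + 1), and 2 with DESeq2, a minimum of 10 counts per sample and only the groups compared. With single samples left out the log2 change was 0.88 to 2.20 for Snai1 and -0.70 to -0.57 for Zeb2. With JSH-23 the number was 2, beside 8.71% of all genes. It was 1 with DESeq2, which gave Snai1 no adjusted p, and 1 under a minimum of 10 counts per sample, which removed Snai1. It was 3 with log2(TPM + 0.1), where Zeb2 passed 1.5-fold at -0.62 and the median of all genes was -0.19. For JSH-23 in WT it was 1, beside 15.8% of all genes. There it was 0 with log2(TPM + 1), where the Vim change was 0.58, and 2 with log2(TPM + 0.1), where Snai1 passed at -1.29. In KO it was 1, beside 26.0% of all genes, and Zeb2 changed by 0.49 to 0.62 with single samples left out. The interaction was called in 1262 genes, and in 747 with a BCV of 0.1. The Snai1 change with JSH-23 in KO, 0.11, was -0.038 with log2(TPM + 1), -0.035 with log2(TPM + 0.1), and -0.39 to 0.95 with single samples left out. The Zeb2 interaction was -0.0058 with log2(TPM + 1). The causes were not tested. DESeq2 gave Snai1 in KO against WT with vehicle an adjusted p of 0.119, and the range over its alternatives was 0.00901 to 0.470.

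The replicate numbers did not pair the samples (correlations of deviations -0.00702 to 0.0262), and the replicate block changed no call of Vim, Zeb2 or Snai1: 1750 genes were called in KO against WT with vehicle in place of 1760, and Snai1 had 1.66 in place of 1.72. Zeb2 with JSH-23 in WT missed the adjusted p at a BCV of 0.1 (adjusted p = 0.0725), and the Zeb2 interaction missed it with DESeq2 (0.140) and by library size only (0.316). Another scaling moved the median of all genes with JSH-23 in KO from -0.02 to -0.13 (library size only) and -0.20 (log2(TPM + 1)), and with the latter that of KO against WT with JSH-23 to -0.16, so changes there are relative to that shift. Depth limits Epcam, Esrp1, Cdh2, Snai2, Twist1 and Zeb1, at 0 to 7 counts, in which no difference passed the test.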
